A study of Homo sapiens with 7 samples.

Results

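The 10 plasma membrane amino acid transporters SLC7A11, SLC7A5, SLC3A2, SLC7A1, SLC7A3, SLC7A8, SLC1A4, SLC1A5, SLC38A2 and SLC6A9 were followed in MEG-01, a human cell line from a megakaryoblastic leukemia, with and without knockdown of the RNA-binding protein RBM15. They were chosen with earlier results of these data known, and 40 other amino acid transporters form a separate list. The 10 members were matched by symbol to the gene identifiers of the deposited exon counts, where they are 10 of 62238 genes. Of these, 9 passed the minimum of 30 summed reads, and SLC7A3 did not. The RNA-seq held 3 libraries of MEG-01 cells in RPMI-1640 with fetal bovine serum: 1 control without a knockdown label, and 2 lentiviral lines that carried shRBM15#1 or shRBM15#2. All 3 are labelled as carrying lentiviral transgenes, and the construct in the control is not named. The RIP-seq, in which RNA bound to RBM15 is pulled down with an antibody and sequenced, held 4 libraries of the same cells, made with normal IgG or an anti-RBM15 antibody. For 1 library labelled normal IgG and 1 labelled anti-RBM15, the label goes against the reads at the study's sites, so only 1 library of each antibody was used as such. Each line is 1 library, so no group holds more than 2 samples.

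Amino acid transporters of the SLC7 light chain type work as pairs with the glycoprotein SLC3A2 (4F2hc), which carries them to the cell surface. With SLC7A5 (LAT1) or SLC7A8 (LAT2) the pair exchanges large neutral amino acids such as leucine, and with SLC7A11 (xCT) it takes up cystine in exchange for glutamate, which feeds glutathione synthesis. SLC7A1 and SLC7A3 carry arginine and lysine. SLC1A4 (ASCT1) and SLC1A5 (ASCT2) exchange small neutral amino acids such as serine, and SLC1A5 also exchanges glutamine. SLC38A2 (SNAT2) takes up alanine and glutamine with sodium, and SLC6A9 (GLYT1) takes up glycine. Several of these genes are known targets of ATF4, a transcription factor made when cells run short of amino acids. Glycine uptake by SLC6A9 supplies heme synthesis in red cell precursors.

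The knockdown used hairpins against these stretches of the RBM15 coding sequence, printed because they define the lines. Both match RBM15 on the plus strand of chromosome 1 in GRCh37.

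shRBM15#1, chr1:110882526-110882545: gcggaatacaagactctgaa

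shRBM15#2, chr1:110884588-110884607: ccaatggttatgccattctt

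RBM15 itself had 3970 reads in the control, 1957 in the shRBM15#1 line and 2121 in the shRBM15#2 line. Its log2 fold change was −0.93 ± 0.23 (SE), with an adjusted p of 0.0908 in edgeR's quasi-likelihood test, so it did not pass the threshold of 0.01 used for genes. The libraries held 53230029, 41629454 and 52458857 counts on exon bins, where a read that spans several bins can count in each. The shRBM15#1 library stood apart. Of all its counts, 32.0% lay on lines naming no gene, against 23.2% in the control and 23.5% in the shRBM15#2 line. It had reads on 473473 bins, against 410882 and 445666. Of 7 megakaryocyte markers, 4 were above 1 read per 1000000 (CPM, from TMM library sizes) in each library, with ITGA2B lower in the lines (919, 476 and 607 CPM), ITGB3 (6.28, 17.9 and 51.8 CPM) and PPBP (2.38, 6.12 and 56.9 CPM) higher, and GP1BA at 4.75, 3.37 and 3.72 CPM, while GP9 and PF4 stayed below 0.1 CPM in all 3. The summed level of 8 erythroid markers was 943 CPM in the control and 4390 and 4340 CPM in the knockdown lines, and all 8 were above 1 CPM in every library. The summed level of 7 myeloid markers was 132, 31.8 and 64.1 CPM, most of it from CTSG (95.8, 3.73 and 8.55 CPM) and LYZ (35.3, 25.6 and 50.9 CPM). That of 4 lymphoid markers was 1.6, 4.02 and 1.97 CPM. That of 3 non-blood markers was 75.5, 58.6 and 50.4 CPM, most of it from EPCAM (74.9, 54.5 and 49.3 CPM). No marker in these lists was at 0 reads in all libraries. The part of these shifts in the transporter values was not tested. A lower level from fewer cells of a type and from less RNA per cell cannot be told apart in bulk libraries.

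Most of the transporters were lower in both knockdown lines, and SLC7A8 was much higher. SLC1A4 fell and SLC7A8 rose at an adjusted p under 0.01. That is 1 member lower, against 0.277% of all 24887 genes tested called lower, and 1 member higher, against 0.0683% called higher. At an adjusted p under 0.05, 4 of the 9 tested members were lower (SLC1A4, SLC7A11, SLC38A2 and SLC7A1) and SLC7A8 was higher, where 1.74% of all genes passed in either direction. The median log2 fold change of the 9 tested members was −0.91, and that of all genes tested was 0.017. Among genes with at least 300 reads the medians were −1.08 for 8 members and −0.141 for all 12994 genes. The members were chosen with earlier results of these data known, so these shares and medians are no test of transporters as a family. With 1 control, the spread in these tests comes from the 2 knockdown lines, and a difference between this control culture and other control cultures cannot be told apart from the knockdown.

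**Figure D1:**
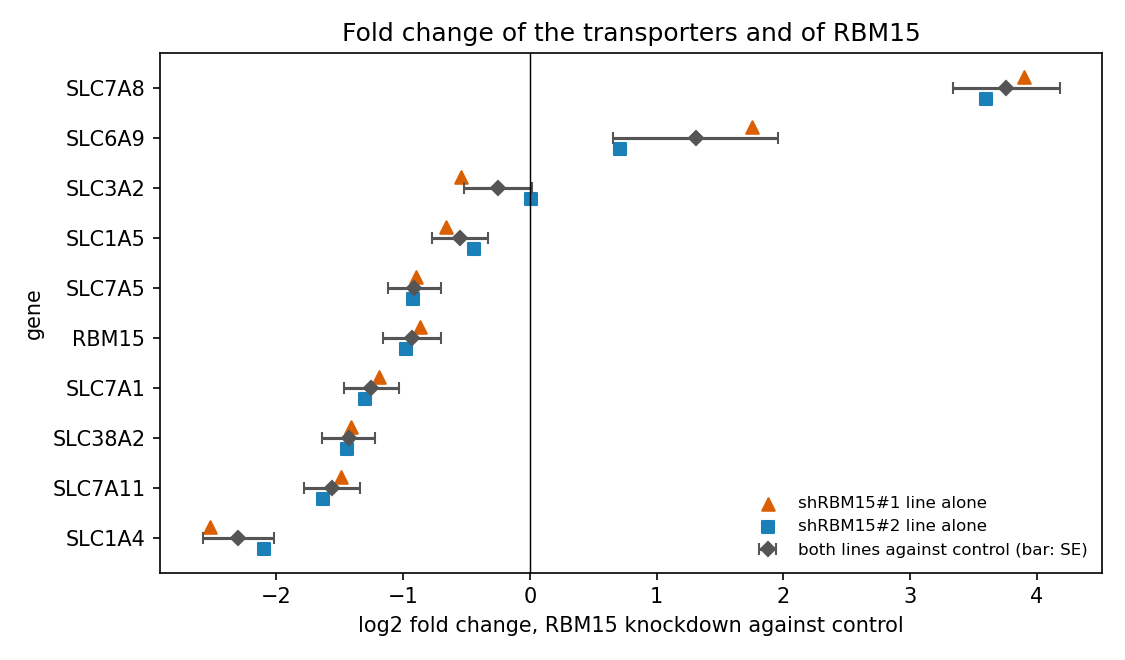
Log2 fold change of the tested transporters and of RBM15, knockdown against control, for both lines together (diamonds, bars are SE) and for each line alone. SLC7A8 lies at 3.76 and SLC1A4 at −2.30, and the shRBM15#2 line alone puts SLC3A2 at 0.01.

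Among the heterodimer partners of SLC3A2, SLC7A8 stood at the other side of the comparison from SLC7A11 and SLC7A5. SLC7A8 (ENSG00000092068, chr14:23594504-23652883, minus strand, GRCh37) had 42 reads in the control, 566 in the shRBM15#1 line and 540 in the shRBM15#2 line, which is 0.849, 12.6 and 10.3 CPM. Both knockdown libraries were far above the control library. The fold was 13.5, with a log2 fold change of 3.76 ± 0.42 (SE) and an adjusted p of 0.00557 in edgeR.

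SLC7A11 (ENSG00000151012, chr4:139085251-139163503, minus strand), the cystine carrier, had 5537, 1771 and 1887 reads in the control, shRBM15#1 and shRBM15#2 libraries, or 112, 39.6 and 36.2 CPM. The levels of the 2 lines lay close together and well below the control. The log2 fold change was −1.56 ± 0.22 (SE), with an adjusted p of 0.0137 in edgeR. Of its reads, 43.4% to 50.8% fell on 1 bin that overlaps the antisense gene SLC7A11-AS1, which counts without strand cannot separate, and without that bin the log2 fold change was −1.44 with an adjusted p of 0.0246. SLC7A11-AS1 had 389, 132 and 78 reads, with a log2 fold change of −1.83 ± 0.44 (SE) and an adjusted p of 0.0896 in edgeR.

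SLC7A5 (ENSG00000103257, chr16:87863629-87903094, minus strand), the leucine carrier, had 13682, 6602 and 7614 reads, or 276, 147 and 146 CPM. Both lines were at about the same level, and the log2 fold change of −0.91 ± 0.21 (SE) had an adjusted p of 0.0798 in edgeR. Its bin 13, the 5′ exon, aligned with the pseudogene SLC7A5P1 over 537 bases with 96.6% identity, so reads there are uncertain. SLC7A5P1 had 174, 132 and 175 reads.

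For SLC3A2 (ENSG00000168003, chr11:62623518-62656352, plus strand), the shared heavy chain, the 2 lines lay at different levels. It had 36830, 22686 and 38991 reads, or 744, 507 and 747 CPM. The shRBM15#1 library was low, and the shRBM15#2 library was at the level of the control. The log2 fold change was −0.54 in the shRBM15#1 line alone and 0.01 in the shRBM15#2 line alone, and −0.25 ± 0.27 (SE) for both, with an adjusted p of 0.666 in edgeR.

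Of the arginine and lysine carriers among the members, only SLC7A1 had enough reads for a test. SLC7A1 (ENSG00000139514, chr13:30083547-30169825, minus strand) had 6450, 2548 and 2760 reads, or 130, 56.9 and 52.9 CPM. Both lines were below the control, with a log2 fold change of −1.25 ± 0.22 (SE) and an adjusted p of 0.0295 in edgeR. SLC7A3 (ENSG00000165349, chrX:70145432-70150975, minus strand) had 1, 15 and 8 reads. The ratio of its read rates, lines over control, was 11.7, with a 95% exact interval from 1.91 to 484 that covers counting error only. Genes with few reads tended to be higher in the lines, as were 65.5% of all tested genes with under 300 reads. The most reads of SLC7A3 were in the shRBM15#1 library, the one that stood apart.

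Both neutral amino acid exchangers lay below the control in both lines, by amounts whose difference was not tested. SLC1A4 (ENSG00000115902, chr2:65215611-65250999, plus strand) had 2588, 404 and 637 reads, or 52.3, 9.02 and 12.2 CPM. Both lines were far below the control, and the level was 4.92-fold lower, with a log2 fold change of −2.30 ± 0.28 (SE) and an adjusted p of 0.00762 in edgeR. SLC1A5 (ENSG00000105281, chr19:47278140-47291851, minus strand), the glutamine exchanger, had 35084, 19961 and 27214 reads, or 709, 446 and 522 CPM. Both lines were below the control here too, but the log2 fold change of −0.55 ± 0.22 (SE) had an adjusted p of 0.24 in edgeR.

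SLC38A2 (ENSG00000134294, chr12:46751972-46766650, minus strand) had 48073, 16225 and 18704 reads, or 971, 362 and 358 CPM, the highest read count of the members in the control. The lines were nearly equal and well below the control, with a log2 fold change of −1.43 ± 0.21 (SE) and an adjusted p of 0.0155 in edgeR. SLC6A9 (ENSG00000196517, chr1:44457172-44497139, minus strand), the glycine carrier, had 26, 79 and 45 reads, or 0.525, 1.76 and 0.862 CPM. Both lines were above the control, with a log2 fold change of 1.31 ± 0.65 (SE) and an adjusted p of 0.316 in edgeR, and the fold of the shRBM15#1 line alone was 1.75 against 0.71 on the log2 scale in the shRBM15#2 line alone. SLC6A9 had under 300 summed reads, a depth at which 65.5% of all tested genes were higher. Of its reads, 15.4%, 6.33% and 11.1% fell on bins shared with the overlapping gene CCDC24.

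Per length of gene model, in RPKM, the CPM divided by the length in kilobases, the control ranked SLC1A5 first at 213, then SLC38A2 at 147, SLC3A2 at 142, SLC7A5 at 58.3, SLC7A1 at 16.9, SLC7A11 at 11.6 and SLC1A4 at 7.54. SLC7A8 at 0.143, SLC6A9 at 0.102 and SLC7A3 at 0.00892 RPKM came last. A read that spans several bins can count in each, and SLC3A2 had 70 bins, SLC38A2 42 and SLC7A5 13. The order between genes can therefore depend in part on how their models are cut into bins. In the knockdown lines SLC1A5 (145 ± 16.1 RPKM, SD, n = 2) and SLC3A2 (120 ± 32.5 RPKM, SD, n = 2) overlapped, and so did SLC7A8 (1.93 ± 0.273 RPKM, SD, n = 2) and SLC1A4 (1.53 ± 0.324 RPKM, SD, n = 2). In the control SLC1A4 was well above SLC7A8. SLC6A9 (0.255 ± 0.124 RPKM, SD, n = 2) and SLC7A3 (0.108 ± 0.0567 RPKM, SD, n = 2) overlapped as well within 1 SD. The other neighbours in the order of the lines did not.

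**Figure D2:**
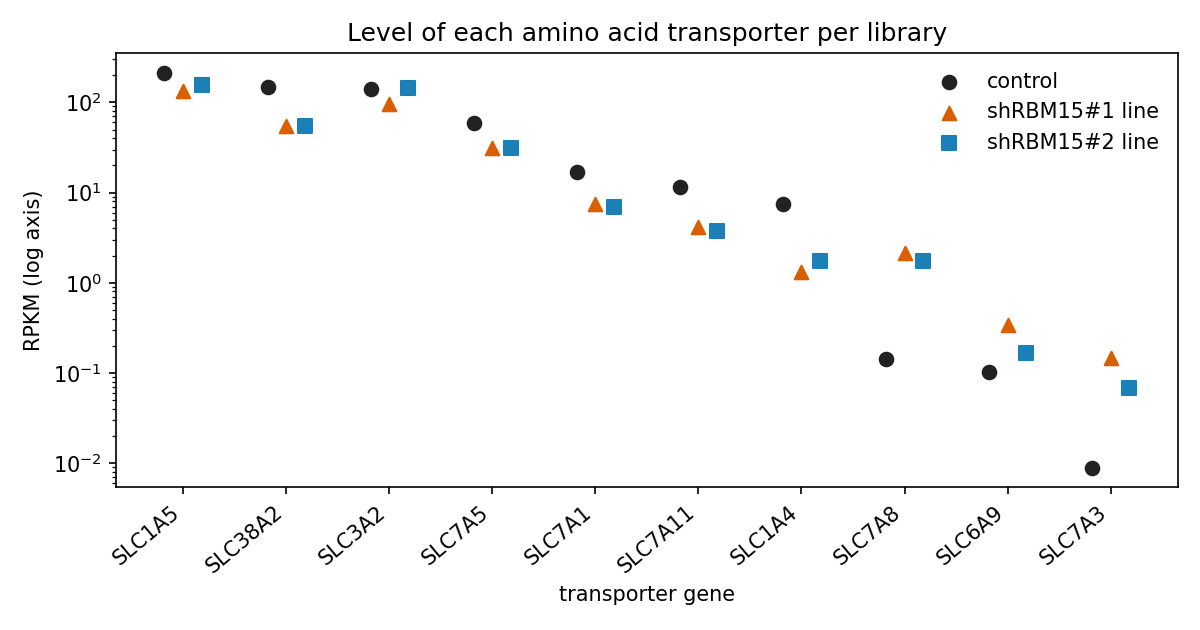
Level of each transporter in RPKM on a log axis, with 1 point per library. SLC7A8 rises from 0.143 RPKM in the control to 2.13 and 1.74 RPKM in the lines, while SLC1A4 goes from 7.54 RPKM to 1.3 and 1.76 RPKM.

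The reads of SLC7A8 were unevenly spread over its gene model. Bins 1 to 22, which run from the 3′ end to the first exon of the short transcripts SLC7A8-204 and SLC7A8-205, held 538 of the reads in the shRBM15#1 line (95.1%, 95% Wilson interval 92.9% to 96.6%) and 511 in the shRBM15#2 line (94.6%, 92.4% to 96.2%). The 14 bins further 5′, with the first exons of the full-length transcripts, held 28 and 29 reads. Per kilobase of bin this was 123 and 117 reads against 17.9 and 18.6 reads. The control had 37 reads on bins 1 to 22 and 5 on the others. This division of the bins was made after their values were seen.

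**Figure D3:**
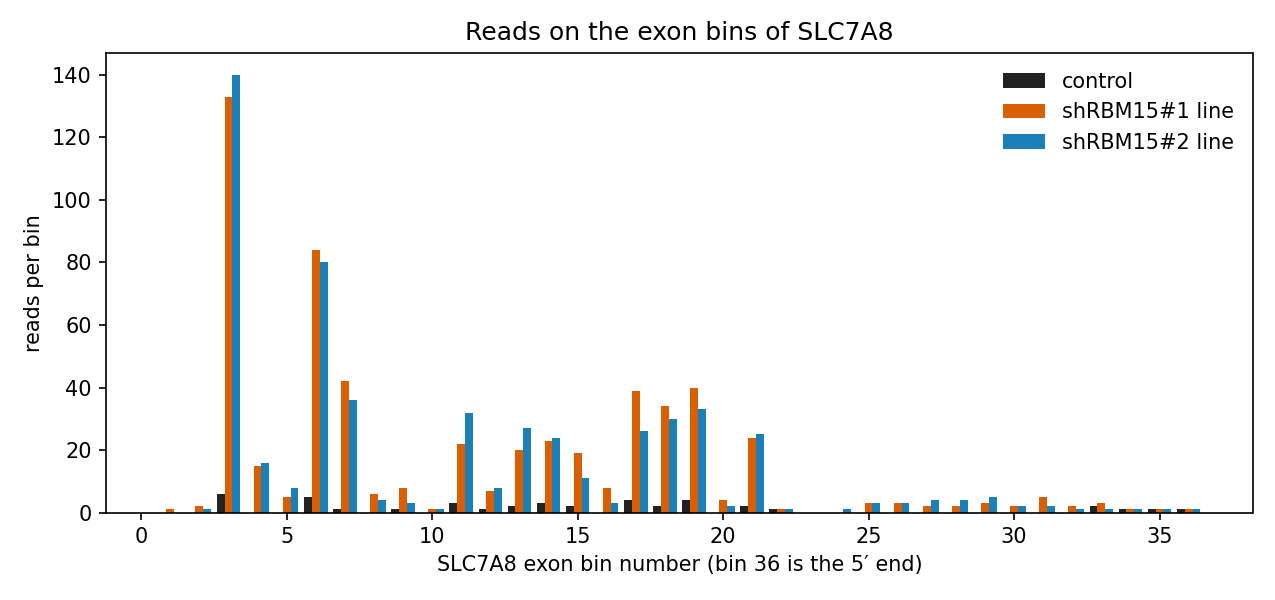
Reads on each of the 36 exon bins of SLC7A8 in the 3 libraries, with bin 36 at the 5′ end of the gene. Bins 3, 6 and 7 carry the most reads in both lines, and bins 23 to 36 stay at 5 reads or fewer in every library.

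Exon bin usage, the change of a bin relative to the other bins of its gene, was tested for 186 bins of 8 members with diffSpliceDGE in edgeR. A bin was called where its p before adjustment was below 0.05 and its relative fold exceeded 1.2. By that rule 6 bins were used less, against 0.786% of all 234192 bins, and 1 bin was used more, against 0.659%. All 7 were in SLC3A2 and SLC1A5. Bins 12, 13 and 14 of SLC1A5 adjoin, as do bins 32 and 33 of SLC3A2. A read that spans several bins can count in each, so these calls are not independent of each other. None of the members' bins passed an adjusted p of 0.05 in edgeR, which 0.0205% of all bins did. With a minimum of 300 reads per bin, 1 of 115 member bins, SLC1A5 bin 12, passed it. The tested bins of SLC7A11, SLC7A5, SLC7A1, SLC1A4 and SLC38A2 had relative log2 fold changes between −0.21 and 0.49.

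In SLC1A5 the bins called as used less, 12, 13 and 14, lie in the inner first exons of short transcripts, downstream of the main first exon (bins 11 to 17, chr19:47287817-47288162, minus strand). Bin 12 had 245, 48 and 93 reads, with a relative log2 fold change of −1.24 ± 0.26 (SE), an unadjusted p of 7.5e-05 and an adjusted p of 0.169 in edgeR. Bin 13 had 147, 36 and 63 reads, and bin 14 had 140, 35 and 63 reads, with a value of −0.95 ± 0.29. Bins 11, 15, 16 and 17 did not pass. Together bins 11 to 17, a group drawn after the values were seen, held 3.61% of the reads of SLC1A5 in the control (95% Wilson interval 3.42% to 3.81%), 1.9% (1.72% to 2.1%) in the shRBM15#1 line and 2.5% (2.32% to 2.69%) in the shRBM15#2 line. The other 12 bins had a median relative log2 fold change of 0.02.

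In SLC3A2 the start of the gene and the exons found only outside the transcripts that GENCODE labels protein-coding went opposite ways. The 9 tested bins before bin 13 hold the upstream first exon, the cassette exons of the longer forms and bin 12, which adjoins bin 13. With both lines together all 9 were above 0, with a median of 0.44. The shRBM15#1 line alone put bins 3 and 12 at −0.22 and −0.06. All 12 bins before bin 13 held 2.24% (2.09% to 2.39%) of SLC3A2 reads in the control and 3.39% (3.16% to 3.63%) and 3.32% (3.14% to 3.5%) in the lines. The 15 tested bins that GENCODE places only in retained-intron, nonsense-mediated decay or undefined transcripts were all below 0 with both lines together, with a median of −0.51. The shRBM15#1 line alone put bins 41 and 50 at 0.04 and 0.13. All 16 bins of this kind held 4.96% (4.75% to 5.19%), 4.01% (3.76% to 4.27%) and 3.19% (3.02% to 3.37%) of the reads. Both groups of bins were chosen after their values were seen. The later coding bins had a median of 0.00, though bins 26, 27, 34 and 35 lay between −0.83 and −0.33.

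Among the bins of SLC3A2 that were called, bin 8 is a coding cassette exon found in 8 of 20 protein-coding transcripts. It had 211, 225 and 348 reads and a relative log2 fold change of 0.71 ± 0.33 (SE), with an unadjusted p of 0.0364 in edgeR. Bins 32 and 33 make up an exon annotated in transcripts marked for nonsense-mediated decay. They had 63, 20 and 16 reads and 105, 30 and 36 reads, with relative log2 fold changes of −1.50 ± 0.52 and −1.38 ± 0.43 (SE). Bin 39, in a retained intron, had 313, 133 and 191 reads and a value of −0.68 ± 0.32.

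**Figure D4:**
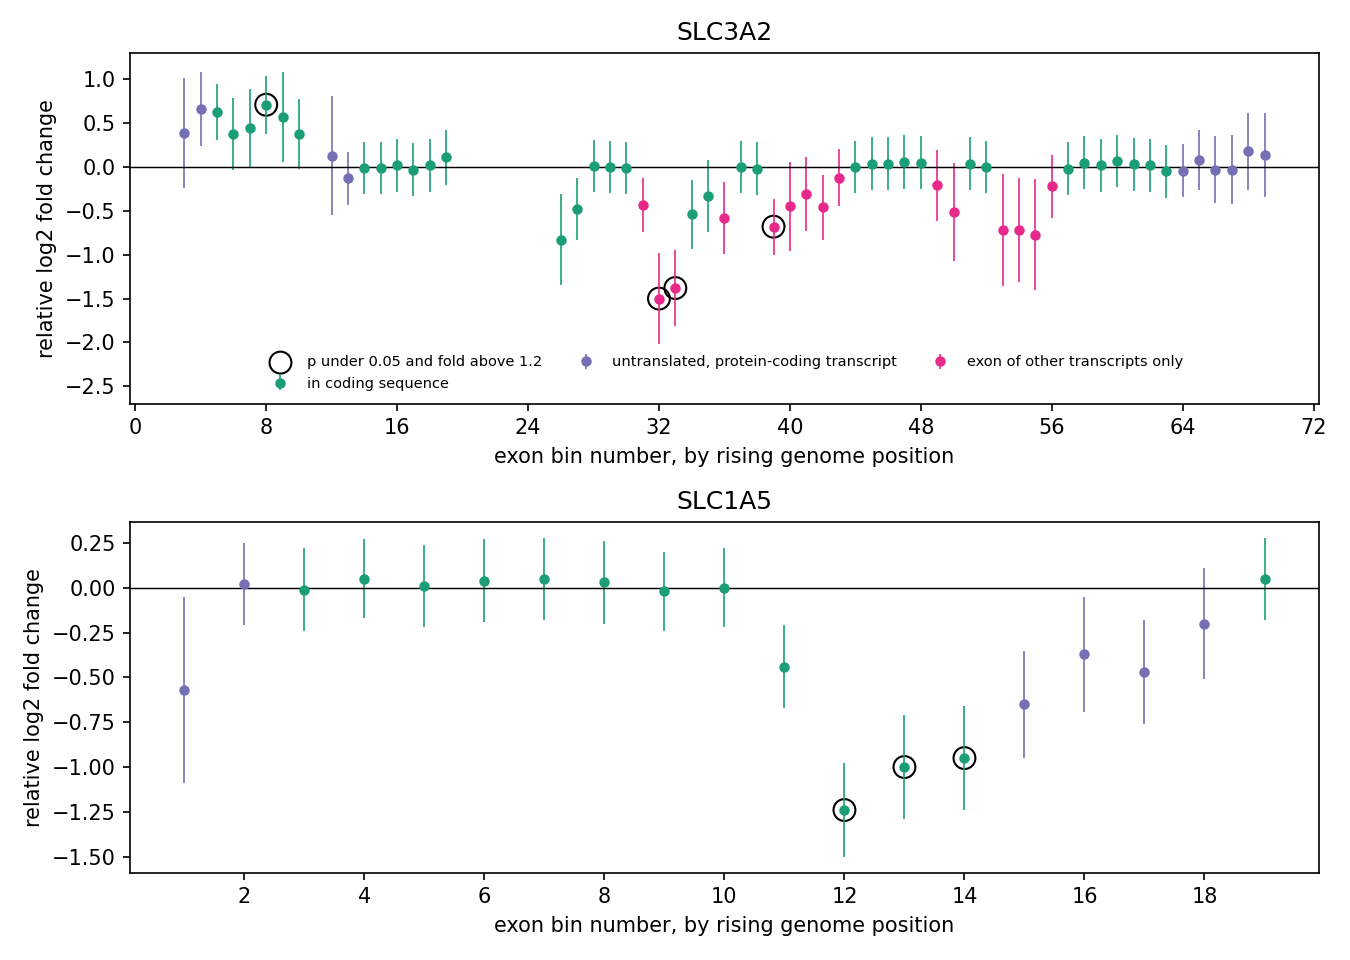
Relative log2 fold change of the tested exon bins of SLC3A2 and SLC1A5, with SE bars, coloured by annotation and circled where p is under 0.05 and the fold above 1.2. In SLC3A2 the bins before bin 13 lie above 0 and bins 32 and 33 lie lowest, and in SLC1A5 bins 12 to 14 lie lowest.

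RIP-seq sites were looked up by symbol in the deposited list of 1515 significant peaks. Of the 10 transporters, 1 had a site, where 3.65% of all 24887 tested genes and 6.83% of those with at least 300 reads had one. SLC7A11 carried 1 peak on its first exon (chr4:139162969-139163409, 441 bases, minus strand), which covers 255 bases of coding sequence from the start codon and 186 bases of 5′ UTR. It had 9 reads in the normal IgG library and 199 in the anti-RBM15 library, a ratio of 22.1, where the median ratio over all sites was 32.3 and 1073 sites had a higher ratio. The list holds only peaks that had passed the study's own test, so a higher count in the anti-RBM15 library was required for entry, and the depth of the libraries is not known from it. The coding part of the peak is printed with the start codon in capitals.

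SLC7A11 site, coding part, chr4:139162969-139163223, minus strand: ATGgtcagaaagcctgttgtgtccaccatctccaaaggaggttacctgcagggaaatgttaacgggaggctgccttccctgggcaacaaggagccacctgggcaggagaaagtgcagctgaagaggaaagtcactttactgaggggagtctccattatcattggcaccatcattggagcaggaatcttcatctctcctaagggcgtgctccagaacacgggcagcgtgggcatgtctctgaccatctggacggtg

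Among the other transporters, SLC6A6, SLC38A5 and SLC38A10 carried 4 sites, all in introns. The taurine carrier SLC6A6 had 2, with 7 and 6 reads in normal IgG and 164 and 136 in anti-RBM15. RPTOR, the mTORC1 subunit that binds its substrates, carried 5. Neither the amino acid shortage list nor the cystine list had a site.

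The other 40 amino acid transporters lay mostly above the control. Of 38 tested, 5 were lower and 33 higher. None passed an adjusted p of 0.01 in edgeR, 17 had an unadjusted p under 0.05, against 18.8% of all genes, and DESeq2 called 2, SLC43A1 and SLC43A2, of 525 in all. Their median log2 fold change was 1.53, also with the 1 gene at 0 reads in the control set to a floor of 3 reads. Most had few reads. All 24 with under 300 reads were higher, where 65.5% of all genes at that depth were, and all 24 had their highest CPM in the shRBM15#1 library, the one that stood apart. The part of that library in these values was not tested. Among the 14 with at least 300 reads, 5 were lower and 9 higher, with a median of 0.19, against −0.141 for all genes at that depth. SLC43A2, a leucine carrier, had the largest fold of these, with 112, 367 and 660 reads, a log2 fold change of 2.20 ± 0.42 (SE) and an adjusted p of 0.0398 in edgeR. SLC43A1, its relative, went the other way, with 3977, 1503 and 1789 reads, −1.24 ± 0.23 and an adjusted p of 0.0339.

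In the list of amino acid shortage signaling, 8 of 12 genes were lower, with a median log2 fold change of −0.68. All 12 had at least 300 reads, and of all genes at that depth 62% were lower, with a median of −0.141. The higher ones were the eIF2 kinases EIF2AK1 and EIF2AK2 and the translation factor subunits EIF2S1 and EIF2B5, with log2 fold changes between 0.03 and 0.28. In edgeR 1 gene of the 12 passed an adjusted p of 0.01, where 0.277% of all genes tested were called lower. That gene, TRIB3, a pseudokinase that dampens the ATF4 response, fell from 10299 reads to 835 and 1129, with a log2 fold change of −3.37 ± 0.23 (SE) and an adjusted p of 9.9e-04. At an adjusted p of 0.05 in edgeR, 3 of the 12 were lower and none higher, where 1.74% of all genes passed. Like the other lists, this one was chosen with earlier results of these data known. ATF4 itself had 16325, 7596 and 8229 reads, with −1.01 ± 0.22 and an adjusted p of 0.0592.

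In the cystine and glutathione list, 8 of 15 were lower and 7 higher, with a median log2 fold change of −0.07. CTH, which makes cysteine from cystathionine, fell from 8764 reads to 2021 and 2494, with −1.93 ± 0.22 (SE) and an adjusted p of 0.00552 in edgeR. It was the only one of the list past 0.01, where 0.277% of all genes were called lower. At an adjusted p under 0.05 in edgeR, 3 of the 15 were lower and 1 higher, where 1.74% of all genes passed. In the list of leucine sensing at mTORC1, 11 of 14 tested were lower, with a median of −0.19. Among its 13 genes with at least 300 reads, 10 were lower, where 62% of all such genes were. SESN2, the leucine sensor, fell with −2.03 ± 0.26 (SE) and an adjusted p of 0.00976 in edgeR. DDIT4, an inhibitor of mTORC1, fell with −2.26 ± 0.22 (SE) and an adjusted p of 0.00323 in edgeR. These 2 of the 14 were past 0.01, where 0.277% of all genes were called lower.

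**Figure D5:**
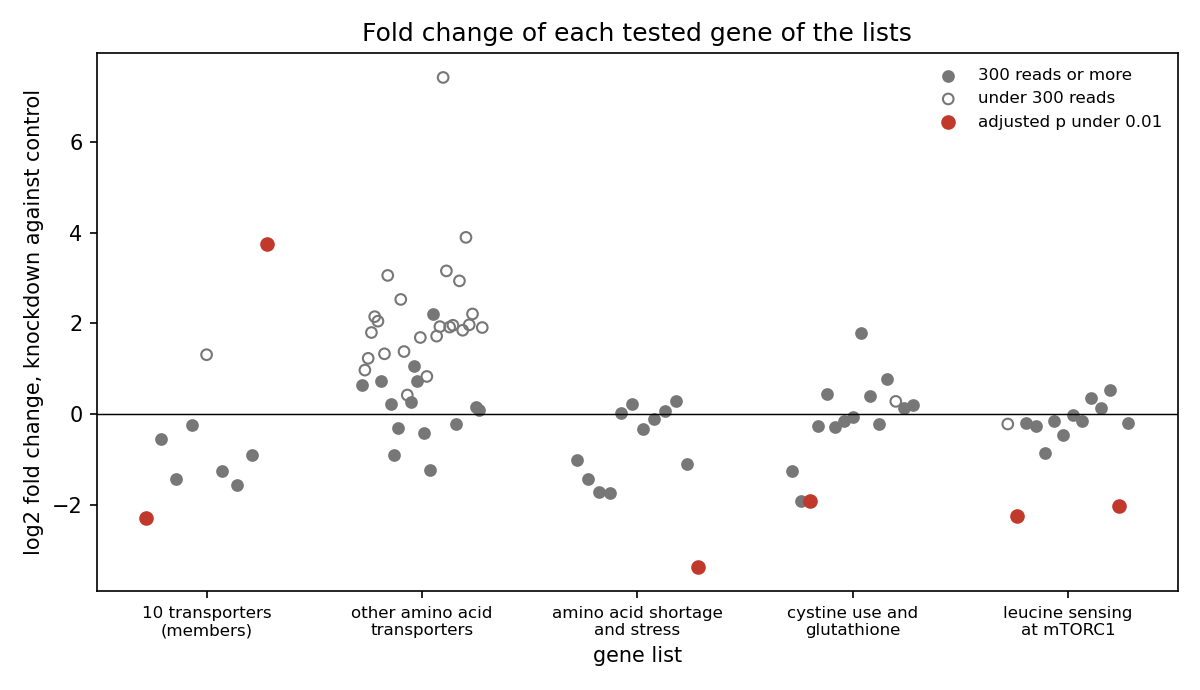
Log2 fold change of every tested gene in the transporter set and 4 related lists, knockdown against control. Filled points have at least 300 summed reads, and red points passed an adjusted p under 0.01. The other transporters lie mostly above 0 where reads are few.

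Promoter windows, 250 bases before to 50 after the transcription start in RefSeq (GRCh38.p14), were found for 8 of the 10 members, with 16 windows in all. SLC7A11 and SLC7A3 had none. The ATF4 core TGATGNAA, searched on both strands, was in 4 of the 16 member windows and in 3.62% of all 35116 windows. The antioxidant response core TGACNNNGC was in 4 of the 16 and in 13.3% of all windows. The ATF4 core is shown in capitals with its neighbouring bases for SLC1A4, SLC1A5 and SLC7A1, on the strand of the gene, and the SLC1A4 match reads on the opposite strand. SLC1A5 had 3 windows, and its match lay 97 bases before an inner start, downstream of another SLC1A5 start. The SLC7A1 match and the remaining one, in SLC3A2, lay after the transcription start. A match is a description of these letters only.

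SLC1A4, GRCh38.p14 chr2:64989382-64989409, plus strand: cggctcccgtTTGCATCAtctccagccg

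SLC1A5, GRCh38.p14 chr19:46784894-46784921, minus strand: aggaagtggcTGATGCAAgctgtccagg

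SLC7A1, GRCh38.p14 chr13:29595664-29595691, minus strand: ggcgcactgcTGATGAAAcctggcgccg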

How the data were processed

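RNA-seq was measured in 3 libraries of MEG-01 cells and RIP-seq in 4. The authors mapped paired-end reads to GRCh37 (hg19) by STAR. The deposited RNA-seq files hold raw counts on exon bins, without strand information for the RNA-seq. The submitters' processing notes also name HTSeq 0.6.0, with no step given for it. Their table of bin results was used for bin positions alone, and its fold changes and p-values were not used, nor were those in the RIP-seq list. For the RIP-seq list the authors kept peaks that passed their DESeq test, with deposited raw counts for 4 libraries.

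Bin counts were summed per gene. A read that spans several bins can count in each. Lines naming no gene held 23.2%, 32.0% and 23.5% of counts and were left out. Genes with at least 30 summed reads (24887) were tested with edgeR 4.0.16 in R 4.3.3 (TMM factors 0.931, 1.08 and 0.996, quasi-likelihood test, Benjamini-Hochberg adjustment, threshold 0.01), and 234192 bins with diffSpliceDGE. RPKM used TMM library sizes and summed bin lengths. The scripts were tested on simulated data. Symbols, strands and bin classes came from GENCODE v44 lifted to GRCh37. Alternatives were DESeq2 1.42.0, limma 3.58.1, other filters and each line alone.

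The members and lists were chosen with earlier results of these data known. The genes named are the members, RBM15, overlapping genes and pseudogenes, and, of each list, genes past the threshold or else the largest fold among genes with at least 300 reads. Marker genes, SLC43A1, ATF4, the higher genes of the shortage list and genes with RIP-seq sites were named after their values were seen. Confidence intervals cover counting error only. A few withheld items are not reported here.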

Additional observations from a re-analysis of the deposited data

Results flagged for a closer look

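The SLC7A11 peak held reads in both RIP-seq libraries that were assigned to no antibody. The library labelled normal IgG held 181 reads there and the one labelled anti-RBM15 held 15, against 9 in the normal IgG library in use. Set beside 9 and 199 reads in the normal IgG and anti-RBM15 libraries in use, both values stand opposite to their labels. The step from 9 to 15 reads is small and was not tested. Summed over all sites, the unassigned libraries labelled normal IgG and anti-RBM15 held 610915 and 28845 reads. The normal IgG and anti-RBM15 libraries in use held 28387 and 807871. In all 1515 sites the unassigned library labelled normal IgG was above the normal IgG library in use, and the unassigned library labelled anti-RBM15 was below the anti-RBM15 library in use. Peaks entered the list by these same reads, and the libraries in use were chosen by them, so that count was largely set in advance.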

How the results depend on the processing

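The members called lower numbered 1, and 3 with DESeq2 size factors, 4 without a filter on low counts, 0 at a minimum of 300 reads, 4 with the DESeq2 test and 4 at an adjusted p under 0.05. SLC7A11 and SLC38A2 were added under each of these but the 300-read minimum, and SLC7A1 without the filter, with DESeq2 and at 0.05. The members called higher numbered 1, and 0 at 300 reads, where edgeR called no gene of 12994 and 2938 had an unadjusted p under 0.05. There SLC7A8 had an adjusted p of 0.0261 and SLC1A4 of 0.0276. Over all genes 86 were called, against 191 with size factors, 801 without a filter and 525 with DESeq2. The median of all genes moved from 0.017 to 0.435 without a filter.

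The median log2 fold change of the members moved to −0.86 without a filter, which brought in SLC7A3, and to −0.94 at 300 reads, where SLC6A9 left and the refit moved the values of the others up (SLC7A5 from −0.91 to −0.77) with a median of all genes of 0.001. The same 8 members had a median of −1.08 in the fit with the lower minimum. With a line left out there is no test, and the median of the members was −0.92 to −0.90. SLC3A2 ranged from −0.54 without the shRBM15#2 line to 0.01, a reversed sign, without the shRBM15#1 line. The 7 member bins called became 1 at 300 reads and 0 at an adjusted p under 0.05. Among all bins, 8541 were called at a minimum of 1 read, 737 at 300 reads and 10069 with voom, against 3384. For named genes and bins, 91 values kept their side of the threshold or their size, 8 newly passed, 7 no longer passed and 1 reversed. No paired analysis was possible, because there was 1 control and no label pairs it with a knockdown line.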
